A study of Homo sapiens with 6 samples.

Results

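The serpins measured here were the rows of a gene count table whose gene name starts with SERPIN, which gave 20 of 27452 rows. RNA sequencing had been done on the established human liver cancer line HepG2, carrying either a control short hairpin RNA (shRNA) or an shRNA against the transcription factor STAT3, with 3 libraries in each group. All cells were grown in serum-containing medium, no other agent is named, and the labels do not say whether the 3 numbered libraries of a group are separate cultures, clones or hairpin sequences, so the tests speak only of how these libraries vary, and that variation may be technical. The 20 rows included 9 that belong to clade B protein-coding genes (SERPINB1, SERPINB2, SERPINB3, SERPINB5, SERPINB6, SERPINB7, SERPINB8, SERPINB9 and SERPINB12), the genes SERPINC1, SERPIND1, SERPINE2, SERPINF1, SERPINF2, SERPING1, SERPINH1 and SERPINI1, and 2 rows named as pseudogenes, SERPINB9P1 and SERPINH1P1. Clade A, which holds the liver antitrypsin and antichymotrypsin genes, was not analysed here.

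Serpins share a fold that lets an inhibitory member trap its target protease: the protease cuts an exposed loop, the serpin snaps into a more stable form, and both proteins stay locked together. Some members have lost this function and work as chaperones or signalling proteins. Hepatocytes secrete many of the serpins of blood plasma, which limit coagulation, plasmin and complement proteases, whereas clade B serpins mostly stay inside the cell.

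Library totals ranged from 17408543 to 25862027 counts, and a gene with 0 counts allows a level of up to 0.113 CPM in the deepest and 0.175 CPM in the shallowest library (3 counts, counting error only; CPM are counts scaled to a common library size). STAT3 itself had 261, 246 and 246 CPM in control libraries 1 to 3 against 34.8, 35.8 and 36.2 CPM with the STAT3 shRNA, as each label says. Of 20 hepatocyte markers sought, 13 had a row. In every library 7 of these 13 had at most 3 counts, among them albumin (ALB) and apolipoprotein APOA1. These defining transcripts of the labelled cell type were thus at or near 0, and only 4 of the 13 markers reached 1 CPM in any library. The marker sum was carried by the urea cycle enzyme CPS1 and ranged from 3939 to 5429 CPM in control and from 2857 to 3175 CPM in STAT3 shRNA libraries. The sum of 5 epithelial markers, mostly keratin 8, ranged from 2810 to 3372 and from 4637 to 5078 CPM. Of these, KRT8, KRT18, KRT19 and EPCAM were each called higher. The cadherin CDH1 was not called, at means of 0.576 CPM in control and 0.733 CPM in STAT3 shRNA libraries. The sum of 5 fibroblast markers was lower without overlap, at 53.11 to 61.15 CPM in control and 35.55 to 37.27 CPM in STAT3 shRNA libraries. It was carried by the collagen gene COL1A1 (mean 40.2 CPM in control and 15.3 CPM in STAT3 shRNA libraries), and COL3A1, near 0, was also lower. In the same order, the means of DCN (11.9 and 14.6 CPM), PDGFRB (4.81 and 6.05 CPM) and LUM (0.0351 and 0.246 CPM) were higher. The sum of 3 leukocyte markers, mostly the lysosomal protein CD68, was higher without overlap, at 11.14 to 15.73 and 20.79 to 28.2 CPM. The sums of 3 endothelial markers overlapped between 1.21 and 1.76 CPM, and the 4 squamous markers summed to at most 0.381 CPM in any library. Within the endothelial sum, CDH5 was lower (mean 1.31 CPM in control and 0.749 CPM in STAT3 shRNA libraries) and VWF higher (0.0721 and 0.708 CPM). Each was without overlap, but CDH5 was not called and VWF was not tested. The part of these shifts in the serpin results was not tested. All 6 libraries are labelled as HepG2 cells. In bulk RNA, fewer cells expressing a gene and less of its RNA per cell cannot be told apart.

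With the STAT3 shRNA, 1 serpin fell and 2 rose. SERPINI1, or neuroserpin, a secreted inhibitor of tissue plasminogen activator best known from neurons, was 12.2-fold lower. SERPINE2, or protease nexin, which inhibits thrombin and urokinase at cell surfaces, was 2.98-fold higher, and SERPINF2, the plasmin inhibitor antiplasmin made by the liver, was 3.77-fold higher. The other 8 tested members, which included the 6 most abundant by CPM, did not pass the threshold. Of the 20 members, 11 had enough counts to be tested, and 3 of these passed a false discovery rate (FDR) of 0.05 over all 14999 genes tested (edgeR quasi-likelihood test). That is 27.3% of the tested members, against 17.5% of all tested genes (9.39% higher and 8.13% lower). Of all called genes 53.6% were higher, and 68.7% when libraries were scaled by their totals alone. All 3 also changed at least 2-fold, so that 27.3% of the tested members and 6.16% of all tested genes were called at that size. The median log2 fold change, STAT3 shRNA over control, was 0.11 over the tested serpins and -0.01 over all tested genes.

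**Figure D1:**
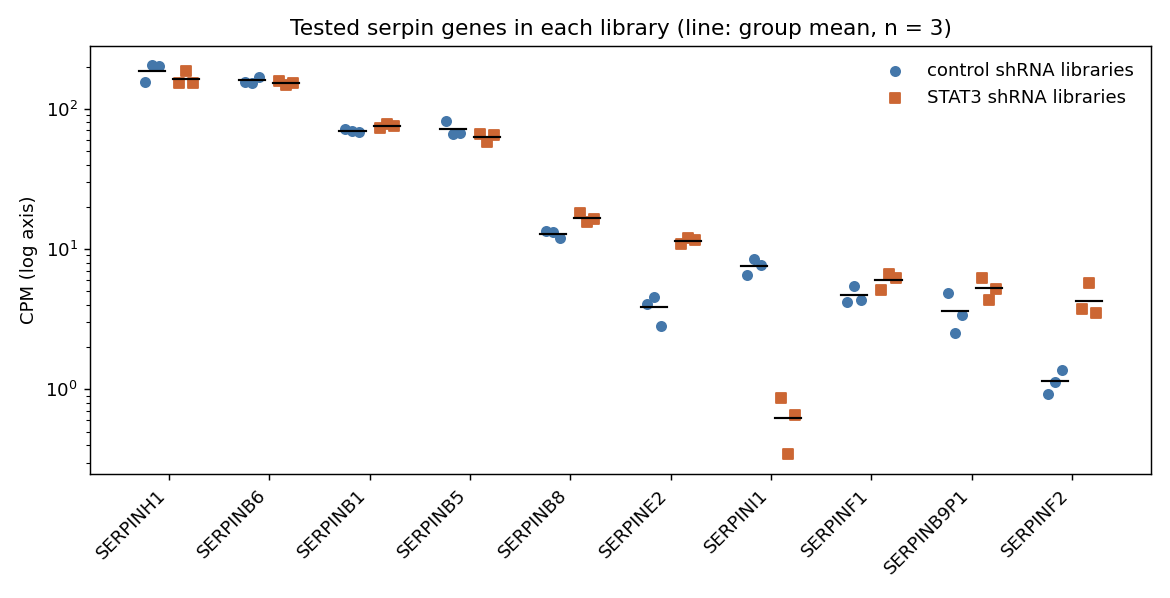
CPM of 10 of the 11 tested serpin genes in each library on a log axis; circles are control shRNA libraries, squares STAT3 shRNA libraries, and black lines group means (n = 3 each). The groups lie far apart for SERPINI1 (7.57 against 0.62 CPM), SERPINE2 (3.84 against 11.4 CPM) and SERPINF2 (1.14 against 4.30 CPM) and close together for the abundant members on the left.

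SERPINI1 was present at 6.58, 8.48 and 7.64 CPM in the control libraries, from 113, 159 and 145 counts. The STAT3 shRNA libraries held 0.863, 0.343 and 0.653 CPM, from 23, 7 and 12 counts. All STAT3 shRNA libraries thus lay below all control libraries, with no overlap. Group means were 7.57 ± 0.949 and 0.620 ± 0.262 CPM (± SD, 3 libraries each), and the log2 fold change was -3.57 ± 0.297 (± SE; adjusted p = 8.09e-05 by edgeR). SERPINI1 was the 38th lowest of the 2627 genes called in either direction and the only serpin whose fold change was larger than that of STAT3 itself (-2.82 ± 0.0845). Its 2 nearest tested protein-coding neighbours, chosen after these values were seen, did not fall. PDCD10 lay at 53.6 ± 4.79 and 50.9 ± 4.19 CPM (-0.07 ± 0.106, edgeR adjusted p = 0.679), and the Golgi protein gene GOLIM4 rose (0.38 ± 0.0815, adjusted p = 0.0122).

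The control libraries held 4.08, 4.59 and 2.84 CPM of SERPINE2, and the STAT3 shRNA libraries 10.8, 11.9 and 11.5 CPM. The lowest STAT3 shRNA library was above the highest control library. Group means were 3.84 ± 0.896 and 11.4 ± 0.564 CPM, and the log2 fold change was 1.57 ± 0.187 (adjusted p = 0.000519 by edgeR). Its neighbours went the other way or were not called: the mitochondrial ribosomal gene MRPL44 fell (-0.58 ± 0.0991, adjusted p = 0.0036), and the ubiquitin ligase scaffold CUL3 had -0.24 ± 0.123 (adjusted p = 0.223).

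SERPINF2 had 0.932, 1.12 and 1.37 CPM in the control libraries, from 16 to 26 counts. With the STAT3 shRNA it had 3.72, 5.69 and 3.48 CPM, from 64 to 116 counts. The groups did not overlap, and the second STAT3 shRNA library stood highest. Group means were 1.14 ± 0.219 and 4.30 ± 1.21 CPM, and the log2 fold change was 1.90 ± 0.283 (adjusted p = 0.00173 by edgeR). SERPINF1, the next serpin on chromosome 17 with no other coding gene between them, encodes pigment epithelium-derived factor, which blocks vessel growth and inhibits no protease. Its control libraries held 4.19, 5.49 and 4.32 CPM and its STAT3 shRNA libraries 5.14, 6.62 and 6.26 CPM, which overlapped, and it was not called (0.36 ± 0.185, adjusted p = 0.221). Per kilobase of longest annotated transcript, the ratio of SERPINF2 to SERPINF1 was 0.151, 0.138 and 0.215 with the control shRNA and 0.49, 0.582 and 0.377 with the STAT3 shRNA. This pair was chosen after the values were seen, so its ratio is a description with no test.

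**Figure D2:**
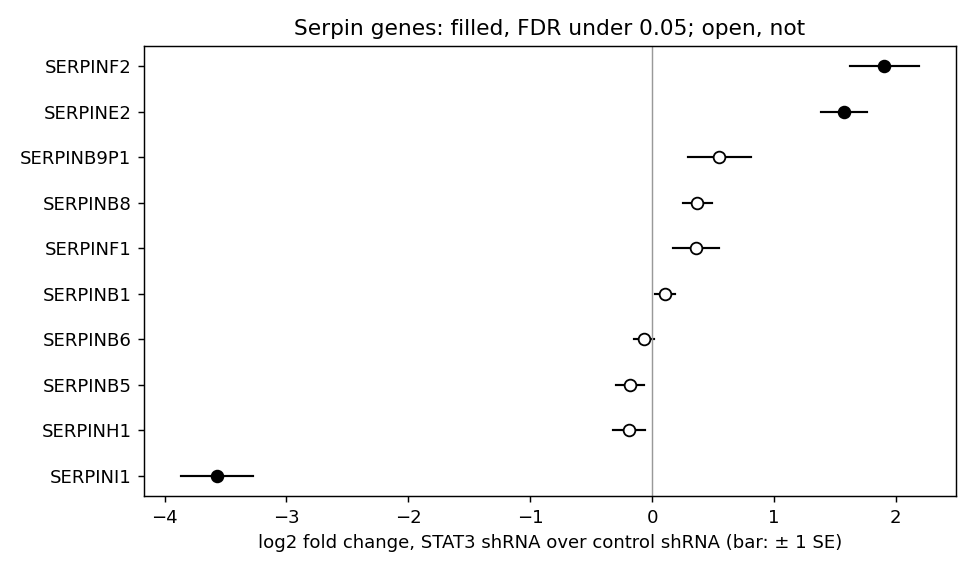
Log2 fold change of STAT3 shRNA over control shRNA for 10 of the 11 tested serpins, with bars of 1 SE; filled points passed FDR 0.05 and open points did not. SERPINI1 at -3.57 stands far below the others, SERPINE2 at 1.57 and SERPINF2 at 1.90 lie above, and the remaining 7 lie between -0.19 and 0.55.

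The ratio of SERPINI1 to SERPINE2 per kilobase was 5.07, 5.81 and 8.43 with the control shRNA and 0.251, 0.0905 and 0.178 with the STAT3 shRNA. This ratio sets the called member that fell against one that rose, so it only restates their levels on one scale.

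The plasminogen activators were scarce in both groups and were not called. Tissue plasminogen activator PLAT lay at 2.17 ± 0.503 and 2.23 ± 0.066 CPM (0.04 on the log2 scale), and urokinase PLAU at 0.480 ± 0.196 and 0.527 ± 0.132 CPM (0.15), both chosen as targets of SERPINE2 and SERPINI1. Plasminogen PLG, the source of the protease that SERPINF2 inhibits, had 0 counts in each control library and 3, 2 and 1 counts with the STAT3 shRNA, at or below the floor.

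SERPINH1, also known as HSP47, is a chaperone of procollagen in the endoplasmic reticulum that inhibits no protease. Its level was 155, 204 and 202 CPM with the control shRNA against 154, 187 and 152 CPM with the STAT3 shRNA. The first control library was as low as the STAT3 shRNA libraries, the groups overlapped, and no difference was called (-0.19 ± 0.131, edgeR adjusted p = 0.364). SERPINH1P1 is annotated as a processed pseudogene, and its transcript aligned to that of SERPINH1 with 92.7% identity over 951 bases. It had 0 to 8 counts per library, and reads of the parent gene could be assigned to it.

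None of the 5 tested clade B rows passed the threshold. SERPINB6, an intracellular inhibitor of cathepsin G and other serine proteases, had 156, 153 and 168 CPM with the control shRNA against 157, 147 and 152 CPM with the STAT3 shRNA, with overlap (-0.07 ± 0.0819, adjusted p = 0.621). Its sign turned to 0.03 with library totals as the scale. SERPINB1, the leukocyte elastase inhibitor, had 72.1, 69.1 and 68.0 CPM against 73.4, 77.3 and 74.8 CPM, a small separation without overlap that was not called (0.11 ± 0.0817, adjusted p = 0.408). SERPINB5, or maspin, an epithelial serpin without inhibitory function, had 82.3, 65.6 and 67.4 CPM against 66.3, 58.0 and 65.5 CPM, with overlap (-0.18 ± 0.113, adjusted p = 0.310).

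SERPINB8, which can inhibit furin, had 13.5, 13.3 and 11.96 CPM with the control shRNA against 17.98, 15.5 and 16.5 CPM with the STAT3 shRNA. The groups did not overlap, and the difference lay just outside the threshold (0.37 ± 0.117, edgeR adjusted p = 0.0586). It passed with upper-quartile scaling (adjusted p = 0.0364), with library totals (0.0273) and without control library 1 (0.0395), and its adjusted p ranged from 0.0273 to 0.237 over all 14 alternatives. SERPINB9P1, named as a pseudogene of the granzyme inhibitor SERPINB9 and annotated as a long noncoding RNA, had 4.89, 2.51 and 3.37 CPM against 6.19, 4.36 and 5.17 CPM, with overlap (0.55 ± 0.261, adjusted p = 0.185). Without control library 1 it was called (0.85, adjusted p = 0.0253), and the serpins called higher were then 4 in place of 2. Of the 11 tested members, 6 had no overlap between groups, among them SERPINI1, SERPINE2 and SERPINF2, while 35.7% of all tested genes had none.

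The clade B genes lie in groups on chromosomes 6 and 18, and only some members of each were expressed. Along chromosome 6, SERPINB1 and SERPINB6 flanked SERPINB9P1 and SERPINB9, and SERPINB9 had no more than 5 counts in any library. Along chromosome 18, SERPINB5 and SERPINB8 lie at the ends of the group. The 4 rows between them, SERPINB12, SERPINB3, SERPINB7 and SERPINB2, had at most 2, 1, 3 and 1 counts in any library. The ratio of SERPINB8 to SERPINB5 per kilobase was 0.145 ± 0.0157 in control and 0.211 ± 0.00811 in STAT3 shRNA libraries (± SD, n = 3 each), a pair chosen after the values were seen and not tested.

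**Figure D3:**
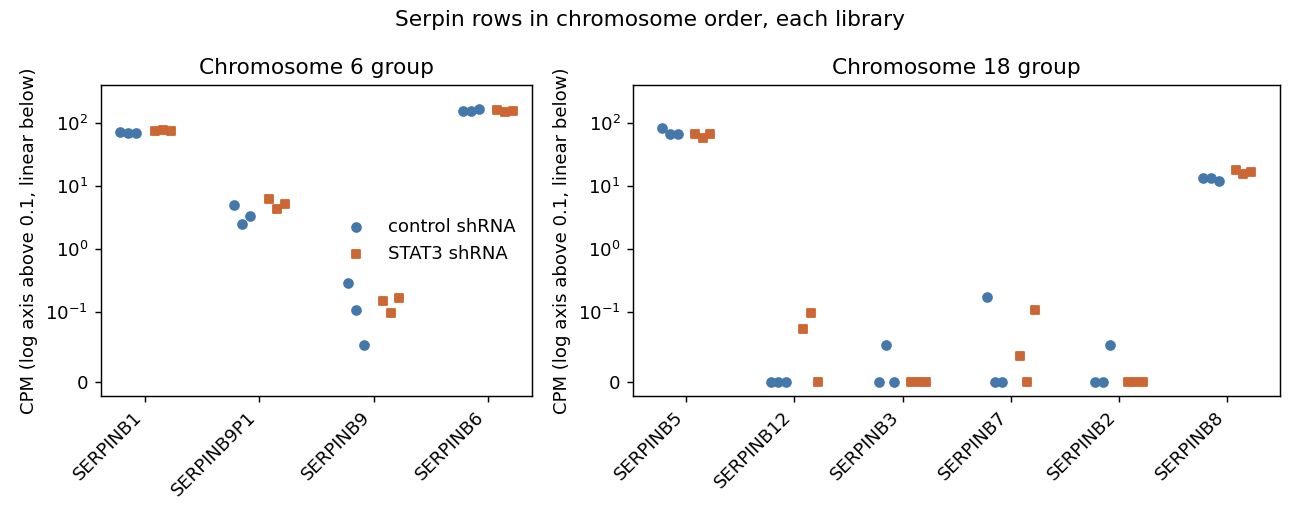
CPM of the clade B rows in their order along chromosomes 6 and 18, with 3 control shRNA libraries (circles) and 3 STAT3 shRNA libraries (squares) each, on an axis that is logarithmic above 0.1 CPM and linear below. SERPINB5 and SERPINB8 lie above 10 CPM at the ends of the chromosome 18 group, and the 4 rows between them lie near 0.

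The 9 members that were not tested had at most 8 counts in any library, so differences in them were not detectable at this depth. They included plasma inhibitors that normal hepatocytes secrete. SERPINC1, or antithrombin, had 0, 2 and 0 counts with the control shRNA and 1, 0 and 0 with the STAT3 shRNA. SERPIND1, or heparin cofactor, had 0, 1 and 4 counts and then 0 in each STAT3 shRNA library. It lies within PI4KA on the opposite strand, which held 1444 to 2644 counts per library, and the strand setting is not given in the sources used here. SERPING1, the inhibitor of the first complement proteases, had 1, 0 and 1 counts and 0 in each STAT3 shRNA library. Angiotensinogen (AGT), a serpin by structure under another name, was also not tested, at 0.0531 ± 0.0533 and 0.0307 ± 0.0279 CPM.

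Per kilobase of longest annotated transcript, SERPINH1 was the most abundant serpin in both groups, at 53.1 CPM per kilobase in control and 46.6 in STAT3 shRNA libraries. In the control group SERPINB6 (28.4), SERPINB1 (26.6) and SERPINB5 (25.8) followed with overlapping ranges. SERPINI1 lay lower, at 3.97, and overlapped SERPINB8 at 3.71. SERPINE2 (0.641) and SERPINF2 (0.499) were the lowest tested members there and overlapped. In the STAT3 shRNA group SERPINI1 was the lowest at 0.325, with a range of 0.18 to 0.453, below SERPINF2 at 1.88 and SERPINE2 at 1.91. These orders rest on the lengths used, such as 3.523 kilobases for SERPINH1, 5.62 for SERPINB6 and 5.989 for SERPINE2. The lengths of the transcripts present in these cells were not measured. In CPM alone, SERPINH1 and SERPINB6 had means of 187 and 159 in control and 164 and 152 in STAT3 shRNA libraries. The family took 0.0526 ± 0.000993% of all counts in control and 0.0534 ± 0.00113% in STAT3 shRNA libraries (exact two-sided permutation p = 0.6, n = 3 per group). Between 14 and 16 of the 20 members had at least 1 count in a library.

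Promoter windows from RefSeq (GRCh38.p14), which run from 250 bases before to 50 after an annotated start, were found for 13 of the 20 members, 21 windows in all. They were searched for TTCNNNGAA, the core letters that STAT dimers bind, which read the same on both strands. The letters occurred in 5 windows, 1 each of SERPINB1, SERPINB7, SERPINB8, SERPINB12 and SERPIND1, against 7.66% of all 35116 windows. They were not in the 2 windows of SERPINE2 or the 1 window of SERPINI1. The 250 bases before the start are given 5′ to 3′ for the called members with a window and for the tested members with a match, with the match in capitals.
SERPINI1, chr3:167735471-167735720, plus strand: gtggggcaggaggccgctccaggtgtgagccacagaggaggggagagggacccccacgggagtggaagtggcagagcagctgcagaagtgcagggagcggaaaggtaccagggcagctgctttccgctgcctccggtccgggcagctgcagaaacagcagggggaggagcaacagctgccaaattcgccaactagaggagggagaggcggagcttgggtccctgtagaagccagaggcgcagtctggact
SERPINE2, chr2:224038641-224038890, minus strand: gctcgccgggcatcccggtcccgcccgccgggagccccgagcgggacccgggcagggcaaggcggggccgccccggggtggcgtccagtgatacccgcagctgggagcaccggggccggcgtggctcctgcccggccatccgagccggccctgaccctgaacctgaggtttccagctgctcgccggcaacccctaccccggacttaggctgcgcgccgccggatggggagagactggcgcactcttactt
SERPINE2, chr2:224031479-224031728, minus strand: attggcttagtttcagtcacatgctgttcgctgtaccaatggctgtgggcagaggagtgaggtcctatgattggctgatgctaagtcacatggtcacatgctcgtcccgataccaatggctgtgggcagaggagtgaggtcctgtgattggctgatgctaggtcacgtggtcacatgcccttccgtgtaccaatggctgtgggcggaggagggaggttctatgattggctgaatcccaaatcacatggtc
SERPINB1, chr6:2841864-2842113, minus strand: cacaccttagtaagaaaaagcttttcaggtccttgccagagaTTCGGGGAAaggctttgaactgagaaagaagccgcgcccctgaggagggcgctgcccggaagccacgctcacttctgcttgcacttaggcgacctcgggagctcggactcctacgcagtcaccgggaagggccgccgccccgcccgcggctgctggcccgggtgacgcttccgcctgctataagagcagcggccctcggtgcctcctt
SERPINB8, chr18:63969831-63970080, plus strand: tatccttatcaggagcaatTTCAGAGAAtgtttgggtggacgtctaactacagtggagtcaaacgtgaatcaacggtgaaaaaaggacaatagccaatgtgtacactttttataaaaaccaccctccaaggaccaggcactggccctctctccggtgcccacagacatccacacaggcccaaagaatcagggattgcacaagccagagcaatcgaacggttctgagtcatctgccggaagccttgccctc
With the start counted as 0, the match began at -208 in SERPINB1 and at -231 in SERPINB8. Neither of these 2 genes passed the threshold, and the called SERPINE2 and SERPINI1 held no match in these windows, while SERPINF2, the third called member, was not searched. A match of letters is not a binding site.

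Genes that work with serpins were then counted in lists, beside 17.5% called and a median of -0.01 over all genes tested. Of 18 tested target proteases, 6 rose and 4 fell (55.6% called, median 0.10). The lysosomal cysteine proteases cathepsin S (CTSS) and cathepsin H (CTSH) rose from 0.583 ± 0.0566 to 7.19 ± 0.721 CPM and from 2.69 ± 0.716 to 17.9 ± 1.23 CPM. Cathepsin B (CTSB) rose (0.67 ± 0.1, adjusted p = 0.00188), while the secreted serine protease PRSS23 fell from 141 ± 9.44 to 55.7 ± 1.12 CPM. The cathepsins did not move one way: cathepsin L (CTSL) fell from 109 ± 13.3 to 72.7 ± 5.04 CPM (-0.59 ± 0.109, edgeR adjusted p = 0.00573), and cathepsin V (CTSV) rose (0.60 ± 0.161, adjusted p = 0.0309), both named after their values were seen. The leukocyte marker sum given above, nearly all CD68, was higher in the same libraries as CTSS, CTSH and CTSB. Its other 2 markers were near 0 in control and STAT3 shRNA libraries, CD14 at 0.124 and 0.125 CPM and LYZ at 0.230 and 0.247 CPM. The part of this sum in the cathepsin changes was not tested. Furin, a target of SERPINB8, was also among those lower (-0.53), named after its value was seen.

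Of 20 tested receptors and cofactors, 4 rose and 5 fell (45% called, median -0.11). The urokinase receptor PLAUR fell from 37.6 ± 4.25 to 17.1 ± 2.06 CPM. S100A10, a plasminogen receptor subunit, rose from 290 ± 18.8 to 457 ± 12 CPM and the sorting receptor SORL1 from 43.1 ± 8.86 to 80.5 ± 3.87 CPM. Only 3 were lower when the first STAT3 shRNA library was left out, and 2 when the third was.

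Among 24 collagen-processing partners of SERPINH1, 5 rose and 3 fell (33.3% called, median 0.03). The prolyl hydroxylase genes P3H2 (1.76 ± 0.115) and P3H3 (1.52 ± 0.239) rose, and the lysyl hydroxylase genes PLOD1 (-0.95 ± 0.0828) and PLOD2 (-1.17 ± 0.127) fell, while SERPINH1 was not called. The fibroblast marker sum given above, mostly COL1A1, was lower in the STAT3 shRNA libraries, while DCN, PDGFRB and LUM were not. Its part in the changes of these partners was not tested. The higher count was 2 without control library 2 and 3 without STAT3 shRNA library 1 or 3. Of 20 secretion and quality-control genes, 1 fell and 0 rose by edgeR (5% called, median -0.02). The DESeq2 Wald test and limma voom also gave 0 higher, and at an unadjusted p under 0.05 by edgeR 2 were higher and 4 lower. The 1 lower gene was the cargo receptor SURF4, from 332 ± 10.2 to 219 ± 8.53 CPM. Without control library 1, 5 were higher and 5 lower.

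Protease inhibitors outside the family showed 6 of 21 higher and 3 lower (42.9% called, median 0.08). SPINK5, an inhibitor of skin kallikreins, rose from 60.0 ± 4.16 to 189 ± 19.4 CPM, and elafin (PI3) from 2.74 ± 0.502 to 11.8 ± 0.838 CPM. WFDC1 fell (-5.34 ± 0.165), as did the tissue factor pathway inhibitor TFPI, from 59.9 ± 11.9 to 17.6 ± 1.32 CPM. Leaving out STAT3 shRNA library 1 or 3 brought the higher count to 3.

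Of 7 tested liver transcription factors known to act on serpin genes, 4 rose and 1 fell (71.4% called, median 0.49). HNF4A rose from 1.51 ± 0.259 to 6.57 ± 1.41 CPM. NR5A2 had 0 counts in each control library and 74, 57 and 30 in the STAT3 shRNA libraries, at least 14.6-fold higher against a floor of 3 counts per library, and the list's median stayed at 0.49 with it set at that bound. CEBPD fell (-0.98 ± 0.172, adjusted p = 0.00452), and without control library 1 the lower count was 2. Of 25 TGF-beta and early response genes, 6 rose and 4 fell (40% called, median -0.10). EPAS1, a hypoxia-inducible factor, fell (-2.84 ± 0.115), as did BHLHE40 (-1.37 ± 0.0934) and SMAD6 (-0.93 ± 0.124), and CCN2 rose from 15.4 ± 0.601 to 33.6 ± 9.36 CPM. The higher count dropped to 1 on leaving out control library 2, STAT3 shRNA library 1 or STAT3 shRNA library 3, and to 2 on leaving out STAT3 shRNA library 2.

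**Figure D4:**
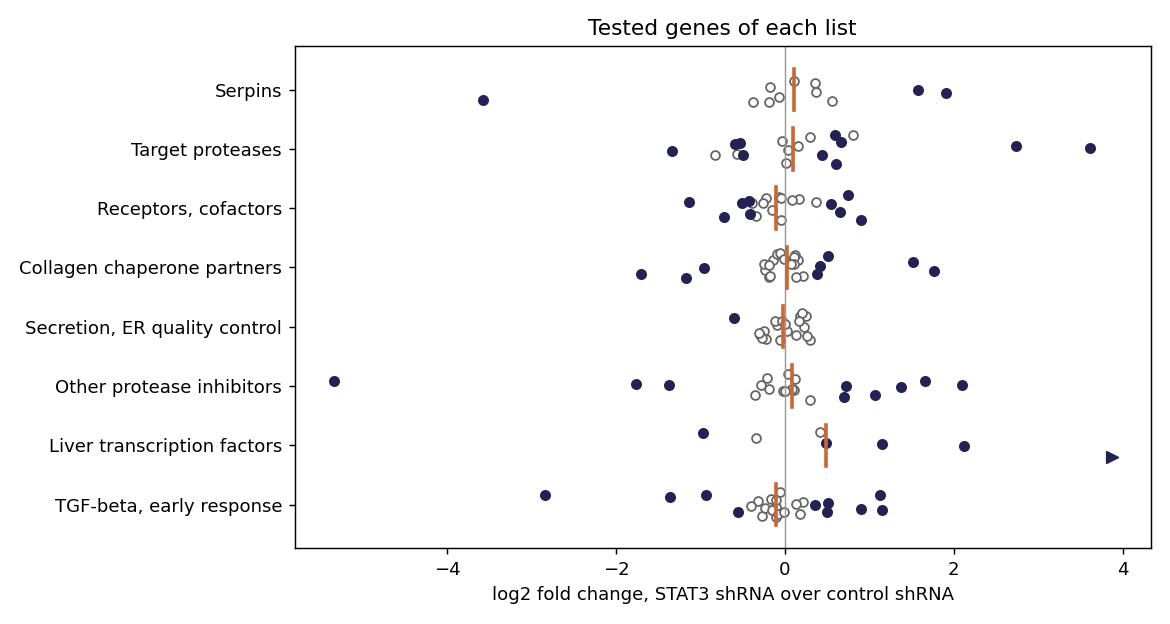
Log2 fold change of STAT3 shRNA over control shRNA for the tested serpins and the tested genes of 7 lists; filled points passed FDR 0.05, open points did not, the triangle is NR5A2 at its lower bound of 3.87, and orange lines are medians. SERPINI1 at -3.57 is the only called serpin on the lower side, and WFDC1 at -5.34 lies lowest of all genes shown.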

How the data were processed

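The deposited table holds whole-number counts per gene in 6 libraries, per the file headers, as the authors made them; aligner, counting program, strand setting, build and annotation are not given in these sources. The analysis used edgeR 4.0.16 under R 4.3.3: filterByExpr at its defaults (minimum count 10, minimum total 15) left 14999 genes, libraries were scaled by TMM, and a two-sided quasi-likelihood F test (robust, model of group only) was run per gene, with Benjamini-Hochberg adjustment over all of them at FDR 0.05. SEs are the log2 fold change divided by the square root of F. Depth and floors stand in the report. Library measures had exact permutation tests. Transcript length, gene order and type came from GENCODE 29, matched by identifier (20 of 20 members), with none of its coordinates printed as the table's build is not named; promoter windows carry RefSeq's own GRCh38.p14 coordinates. The procedure was checked on counts simulated from its own fitted model, with 200 changed genes. That check cannot show how well the model suits these libraries. Alternatives used DESeq2 1.42.0, limma 3.58.1, other scalings and filters, a replicate block and leaving out each library.

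Members and lists were chosen with earlier results of these data known. All members are counted, and the values of a few genes, 1 member among them, are not reported here. Values per library are given for members past the threshold, at 10 CPM or more in either group, or tested with a role in plasminogen or coagulation control, and for the other tested members. From each of 8 lists up to 4 called genes with the smallest FDR are named, or else up to 2 with the highest CPM.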

Additional observations from a re-analysis of the deposited data

How the results depend on the processing

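The calls of SERPINI1 (-3.92 to -3.29 on the log2 scale), SERPINE2 (1.40 to 1.72) and SERPINF2 (1.65 to 2.06) held in all 14 alternative fits, as did that of STAT3 (-2.84 to -2.72). The count of serpins higher was 2 to 4 when a library was left out, 4 of them without control library 1, and the count lower was 1 in all 14. SERPINB6 reversed to 0.031 with library totals, uncalled in both. Leaving out a library gave 782 to 2027 genes higher and 658 to 2008 lower among the 14999 genes of the main test (2027 and 2008 without control library 1, 798 and 698 without control library 2, 782 and 658 without STAT3 shRNA library 1 and 788 and 665 without its library 3), 2 to 6 receptors and cofactors lower, 2 to 6 collagen partners higher, 0 to 5 secretion genes higher and 1 to 5 lower, 3 to 6 other inhibitors higher, 1 to 2 liver factors lower and 1 to 5 TGF-beta and early response genes higher. Library totals gave 1 secretion gene higher. With a motif gap of 4 bases in place of 3, 0 members had a match. With the replicate block 2 serpins were higher and 1 lower, and 2278 genes were called in all, against 2627. Same-numbered libraries correlated at 0.344, 0.217 and -0.284 in their deviations from the group means. Control and STAT3 shRNA libraries with unlike numbers ranged from -0.545 to 0.413. With 3 libraries per group, these values cannot decide whether the numbers pair the libraries. Counts were low for SERPINI1 with the STAT3 shRNA (7 to 23 per library), for SERPINF2 with the control shRNA (16 to 26) and for the 9 untested members (at most 8).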
